A study of Rattus norvegicus with 6 samples.

Results

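Transfer RNA (tRNA) fragments that differ from their tRNA by 1 base inside the fragment were examined in small RNA libraries of rat muscle. A fragment was taken as such a member when it aligned to a mature nuclear tRNA with a mismatch at least 2 bases away from both of its ends. There were 15209 such distinct sequences among the 36141 sequences aligned to mature nuclear tRNAs and the 77567 aligned to any tRNA. The 3 control libraries (titled ctrl) and the 3 experimental libraries (titled exp) came from muscle of the lewis strain at 6 to 8 weeks of age. The series title concerns rejection of a composite tissue transplant, whereas a skin characteristic in the labels reads normal for the controls and UV damage for the experimental samples, and neither the treatment nor the donor and host strains are given. Whether each library stands for an animal of its own is not stated, and a p-value here reflects no more than how far these libraries spread, possibly for technical reasons. The controls held 258576 to 616570 reads on mature nuclear tRNAs, and the experimental libraries held 731508 to 1851492, so rare mismatches were measured more closely in the latter.

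Cells methylate, deaminate or otherwise modify many tRNA bases after transcription. When RNA is copied into DNA for sequencing, a modification on the edge that pairs with the next base can stop the enzyme or make it insert a wrong base, which then appears as a mismatch at a fixed position. Inosine, made from A at position 34 (the first base of the anticodon), is read as G. Position 58 in the T loop usually carries 1-methyladenosine, position 9 often carries a methylated G or A, position 26 often dimethylguanosine, and position 37 (next to the anticodon) 1-methylguanosine or bulky forms of A. Positions here follow this standard numbering unless a site is named by a substitution such as A56T, which gives the reference base, the position counted from 1 at the 5′ end of that mature tRNA, and the base read.

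The sequences on which the results turn are printed in lower case with the mismatched base in capitals, with the reference over the same stretch. Coordinates of the tRNA genes are those of the deposited table, counted from 1, with no genome build or strand stated. The first pair is a 3′ fragment of tRNA-Gly-CCC-4-1 (chr4:118207496-118207566) and the second a short 3′ fragment of 22 nt found in tRNA-Gly-GCC-1-1 (chr3:43183527-43183597) and in tRNA-Gly-CCC-1-1 (chr2:198461976-198462046); the third is a fragment of tRNA-Asp-GTC-2-1 (chr7:34287931-34288002). In all of them the capital is position 58.
Gly-CCC-4-1 read: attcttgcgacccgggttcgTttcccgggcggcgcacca
Gly-CCC-4-1 reference: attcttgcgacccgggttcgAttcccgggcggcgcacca
Gly-GCC-1-1 read: tcgTttcccggccaatgcacca
Gly-GCC-1-1 reference: tcgAttcccggccaatgcacca
Asp-GTC-2-1 read: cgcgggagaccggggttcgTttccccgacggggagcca
Asp-GTC-2-1 reference: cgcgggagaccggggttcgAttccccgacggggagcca

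The next set shows 5′ fragments with a mismatch at position 6, with the capital at that base, from tRNA-Gly-GCC-1-1 and from tRNA-Lys-CTT-1-1 (chr2:198567936-198568008).
Gly-GCC-1-1 read with T: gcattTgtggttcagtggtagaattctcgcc
Gly-GCC-1-1 read with A: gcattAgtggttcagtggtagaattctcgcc
Gly-GCC-1-1 reference: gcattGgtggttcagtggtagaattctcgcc
Lys-CTT-1-1 read with A: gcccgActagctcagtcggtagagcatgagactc
Lys-CTT-1-1 reference: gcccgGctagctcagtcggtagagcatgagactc

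The last set shows the anticodon base 34 read as G in tRNA-Val-AAC-1-1 (chr2:116415357-116415429) and in tRNA-Ile-AAT-1-1 (chr2:266305399-266305472), where that base is number 35 from the 5′ end.
Val-AAC-1-1 read: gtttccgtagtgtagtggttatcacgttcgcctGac
Val-AAC-1-1 reference: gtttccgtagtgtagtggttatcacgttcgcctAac
Ile-AAT-1-1 read: ctGataacgccaaggtcgcgggt
Ile-AAT-1-1 reference: ctAataacgccaaggtcgcgggt

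Most members were rare. A single read in all libraries together supported 9003 of the 15209 members (59.2%), and 853 were found in all 6 libraries. At the other end, 88 members with 1000 or more reads held 49.8% of all member reads. Glycine tRNAs gave 84.7% of member reads and 84.7% of exact reads, lysine tRNAs gave 6.38% and 6.39%, and glutamic acid tRNAs gave 6.24% and 5.88%. All 203 nuclear tRNA entries had at least 1 member. Because tRNA genes are repeated, 7548 members matched more than 1 tRNA entry, 3195 matched more than 1 anticodon, and 766 had a different mismatch on different tRNAs. No member matched any tRNA of the table exactly. The edge rule placed 1747 members exactly 2 bases from an end (0.697% of nuclear tRNA reads), and 2552 sequences with a mismatch 1 base from an end (1.19%) fell just outside it.

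Members took 7.35%, 7.24% and 7.31% of nuclear tRNA reads in the controls and 7.64%, 8.40% and 7.87% in the experimental libraries. The means were 7.30% ± 0.0572 (SD, n = 3) and 7.97% ± 0.387 (SD, n = 3). The groups did not overlap, and the two-sided exact permutation test gave p = 0.1, the smallest that 3 against 3 libraries can give. Counted as distinct sequences in place of reads, members took 40.6% ± 1.82 of control and 39.7% ± 1.03 of experimental sequences, the opposite direction with overlap (exact permutation p = 0.6).

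The share was then taken at each position class, as mismatch reads over mismatch plus exact reads that cover the position at least 2 bases from a read end. At the positions outside the named classes it was 0.369% ± 0.0135 per base in the controls and 0.415% ± 0.0275 in the experimental libraries, which is the background against which the classes are read (exact permutation p = 0.1, adjusted over the 6 classes 0.2). Position 34 with A stood far above it and position 58 above it in both groups. Position 9 lay below it, and positions 26 and 37 lay somewhat above it when reads were pooled. As means of site shares, in which each covered site counts the same, the background was 0.854% and 0.802% in the 2 groups. Position 26 was then at 0.439% and 0.647% and position 37 at 0.767% and 0.667%, both below it, whereas position 58 stayed above it at 1.63% and 4.44%. Of the 6 classes, positions 34 and 58 and the background did not overlap between groups, with p = 0.1 and adjusted p = 0.2 in exact permutation tests, so no class passed a threshold of 0.05.

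**Figure D1:**
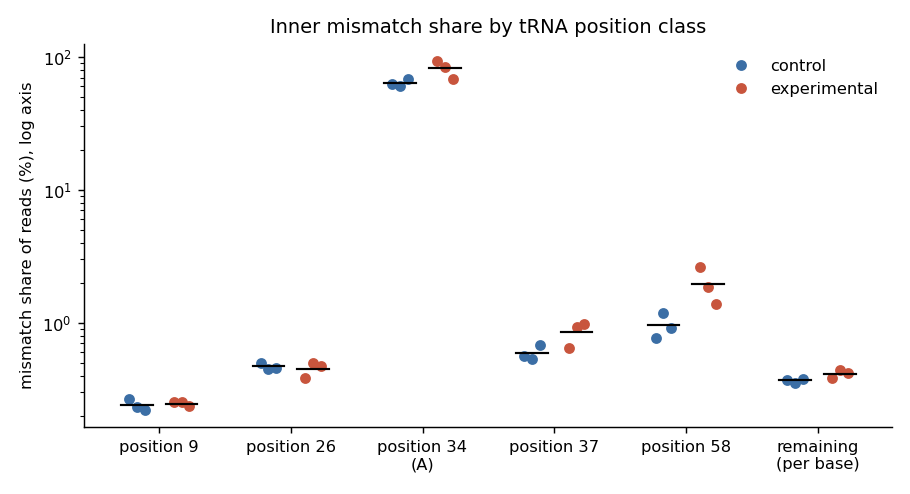
Share of reads with a mismatch (vertical log axis, percent) at 5 standard tRNA positions and per base over the remaining positions. Each point is 1 library (3 control, 3 experimental) and each bar is the group mean; position 34 lies above 60% in every library, and position 58 is higher in each experimental library (1.39% to 2.61%) than in any control (0.774% to 1.18%).

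At position 58 the mismatch share was 0.774%, 1.18% and 0.921% in the controls and 2.61%, 1.86% and 1.39% in the experimental libraries. The difference lay in 1 of the bases read, a split described after the values had been seen. The values by tRNA and by fragment length given below divide the same reads and are no separate support. T was read in place of A in 0.152%, 0.286% and 0.355% of control reads (22 of 10147 reads in all) and in 1.98%, 1.12% and 0.780% of experimental reads (248 of 18919). Every experimental library was above every control, and experimental replicate 1 was the highest (exact permutation p = 0.1). G was read in 0.596% ± 0.165 of control and 0.558% ± 0.0243 of experimental reads, with overlap (exact permutation p = 1). C was read in 0.0638% ± 0.0564 and 0.0557% ± 0.0225 (exact permutation p = 0.9).

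T at position 58 was first taken in glycine tRNAs, which decode glycine codons. They held 6 of the 22 control and 128 of the 248 experimental T reads at position 58. In the glycine tRNAs together 6 of 549 control reads and 128 of 929 experimental reads had T, or 1.16% ± 0.339 and 13.05% ± 5.38. In Gly-CCC the share was 1.04% (Wilson 95% interval 0.184 to 5.67), 1.10% and 1.27% in the controls and 22.1% (17.7 to 27.2), 13.5% (9.63 to 18.6) and 10.3% (6.64 to 15.8) in the experimental libraries. The 2 groups did not overlap, and neither did the intervals of experimental replicates 1 to 3 with those of any control. In Gly-GCC, which shares short 3′ fragments with Gly-CCC, it was 1.64%, 0% and 0.709% against 20.3%, 12.6% and 2.82%, and the interval of the last (0.776 to 9.70) overlapped those of the controls. In Gly-TCC 0 of 27 control reads and 7 of 96 experimental reads had T. For the 39-nt glycine fragment printed above, control counts of the T form were 0, 2 and 0 beside 32, 16 and 4 exact reads, and experimental counts were 25, 8 and 3 beside 63, 47 and 37. For the 22-nt fragment they were 0, 0 and 1 beside 18, 88 and 110 in the controls, and 12, 8 and 1 beside 29, 30 and 15 in the experimental libraries.

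Beyond glycine the pooled share was lower but had the same direction. Without glycine tRNAs, T at position 58 took 0.199% ± 0.0685 of control and 0.656% ± 0.241 of experimental reads, and the groups did not overlap (exact permutation p = 0.1). Asp-GTC, the aspartic acid tRNA, gave the largest number of reads over this position. Its T share was 0.0762%, 0.121% and 0% in the controls and 0.80%, 0.685% and 0.422% in the experimental libraries. The Asp-GTC-2-1 fragment printed above was rare in its T form. It had 0, 0 and 0 such reads in the controls beside 16, 49 and 24 exact reads. In the experimental libraries it had 3, 0 and 1 beside 239, 41 and 87. Met-CAT, the elongator methionine tRNA, had 0 of 72 control reads, which allows a share of up to 4.17%, and 17 of 106 experimental reads, at 33.3%, 17.5% and 4.76% by library. Arg-CCT had 1 of 99 and 11 of 217 reads, with overlap between libraries. Other well covered tRNAs overlapped between groups or had almost no such reads. Arg-TCT had 1 of 399 control and 6 of 702 experimental reads, with means of 0.181% and 0.565% (exact permutation p = 0.7). The means of the glutamic acid tRNAs ran the other way. Glu-CTC had 1 of 237 and 10 of 1877 reads, with means of 0.758% and 0.498%, and Glu-TTC had 1 of 418 and 10 of 3806, with means of 0.366% and 0.231% (exact permutation p = 1 for each). Val-TAC had 1 of 807 control and 0 of 729 experimental reads, and His-GTG had 0 of 344 and 0 of 117, which allows up to 0.872% and 2.56%. Of 37 anticodons with A at position 58 and at least 30 reads in each group, 28 had any T read. The pooled share was higher in the experimental group in 21 of them and lower in 7. Many of the 21 had no control T read and few experimental ones, such as Ala-CGC with 0 of 641 and 2 of 1897 reads. The experimental group had more reads over the position (18919 against 10147), so an anticodon could enter this count more easily through it. No conclusion is drawn from the 21 and 7. The groups lay apart with the experimental one higher in 4 (10.8%: Gly-CCC, Gly-GCC, Asp-GTC and Met-CAT) and with it lower in 0. Over all 617 single-substitution sites tested with limma, 17.2% lay apart and higher and 5.19% apart and lower. The bases of these shares are unlike. Each of the 617 sites had at least 10 mismatch reads, whereas the anticodons needed none, and 9 of the 37 had no T read. No conclusion is drawn from this comparison. The counts of anticodons share reads where anticodons share fragments.

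**Figure D2:**
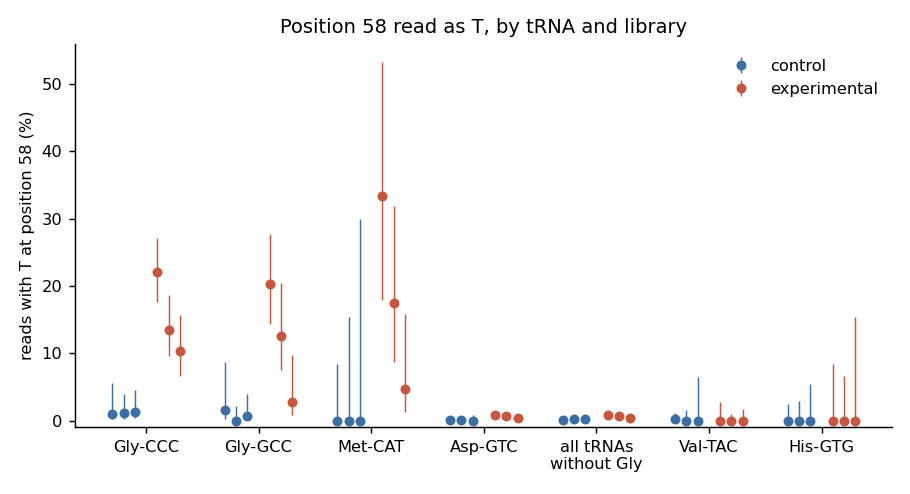
Reads with T at position 58 (vertical axis, percent of reads over the position) in 6 tRNAs and in all tRNAs without glycine. Each point is 1 library with its Wilson 95% interval, controls left and experimental libraries right; Gly-CCC reached 10.3% to 22.1% in the experimental libraries against at most 1.27% in the controls, and His-GTG had no such read.

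The mix of fragment lengths was held apart because it differs between libraries. In reads of 30 nt or more T at position 58 took 0.242% ± 0.117 of control and 1.36% ± 0.740 of experimental reads, and in shorter reads 0.333% ± 0.143 and 1.19% ± 0.623. In glycine tRNAs the values were 2.99% ± 0.729 and 12.4% ± 3.82 in the longer reads and 0.219% ± 0.380 and 14.2% ± 9.22 in the shorter ones. The groups did not overlap in any of these 4 subsets.

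At position 34 reads were few, but most of them carried a mismatch. The 56 nuclear tRNA entries with A at this position had 77 control and 200 experimental reads over it, and the mismatch share was 62.5%, 60.9% and 68.2% in the controls and 92.6%, 84.7% and 68.6% in the experimental libraries. The highest control and the lowest experimental library differed by less than their intervals. G, the base as which inosine is read, was the base in 45 of 49 control mismatches and in 164 of 168 experimental ones. G took 62.5% (Wilson 95% interval 45.3 to 77.1), 43.5% (25.6 to 63.2) and 68.2% (47.3 to 83.6) of control reads, and 92.6% (82.4 to 97.1), 81.1% (72.8 to 87.3) and 68.6% (52.0 to 81.4) of experimental reads. Val-AAC, a valine tRNA, gave most of them, with 27 of 31 control and 108 of 111 experimental reads read as G. By library its share was 100%, 63.6% and 100% in the controls and 100%, 95.7% and 100% in the experimental libraries, which overlapped (exact permutation p = 1). In Ile-AAT it was 5 of 7 and 24 of 26 reads, and in Arg-ACG 4 of 18 and 14 of 32. Each of these 2 overlapped between groups (exact permutation p = 0.4 for Ile-AAT and 0.2 for Arg-ACG). Without Val-AAC the share was 38.3% ± 12.6 in the controls and 64.1% ± 17.4 in the experimental libraries, with no overlap (exact permutation p = 0.1). The gap was narrow, with control replicate 3 at 50% (26.8 to 73.2) and experimental replicate 3 at 52.2% (33.0 to 70.8). Of the 209 reads with G in place of A, 132 also aligned with 1 mismatch to a tRNA with C at position 34, so their source is uncertain. Every single A-to-G site here had under 30 control reads, so none was tested alone.

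Summed over the bases read, positions 9, 26 and 37 showed shares of the order of the background. The splits by base read below were described after the values had been seen. At position 9 the share was 0.240% ± 0.0239 in the controls and 0.246% ± 0.0100 in the experimental libraries (exact permutation p = 0.8), and where the reference base is G it was 0.236% ± 0.0203 and 0.233% ± 0.00891. Read as C (0.0417% and 0.0499%) or as G (0.00663% and 0.0262%) it lay apart and higher, whereas A and T overlapped. Where the reference base is A, G took 0.423% and 0.315%, with overlap. At Gly-GCC the G9A form had 4301 reads, G9T 1699 and G9C 1547, and Lys-CTT A9G had 806. At position 26 the share was 0.470% ± 0.0257 and 0.451% ± 0.0568 (exact permutation p = 0.8). Most of those reads came from Gly-GCC, which has T there, as base 25 from the 5′ end. Its T25C form took 0.420% ± 0.0211 of control and 0.352% ± 0.0613 of experimental reads, apart and lower. Its T25A form took 0.0486% ± 0.00324 and 0.0756% ± 0.00827, apart and higher. Neither passed the threshold (limma adjusted p = 0.71 and 0.216). Its T25G form had 609 reads, with 0.00990% ± 0.00160 and 0.0206% ± 0.00370, no overlap and no call (limma log2 odds difference 1.04 ± 0.249 SE, adjusted p = 0.139). Lys-CTT A26G had 919 reads and a difference of −0.02. Where position 26 is G, in 123 tRNA entries, the mismatch share was 0.820% ± 0.574 and 1.25% ± 0.265, with overlap. Both means lay above the pooled background of 0.369% and 0.415%, but control replicate 3, at 0.324%, did not. At position 37 the share was 0.594% ± 0.0755 and 0.853% ± 0.177 (exact permutation p = 0.2), and it was carried by Glu-CTC, a glutamic acid tRNA. Its A37G form took 0.328%, 0.412% and 0.475% in the controls and 0.563%, 0.945% and 1.03% in the experimental libraries, which did not overlap (limma log2 odds difference 1.02 ± 0.368 SE, adjusted p = 0.253). Of its 242 reads 97.5% had the mismatch within 4 bases of the 3′ end of the fragment. The further sites at this position were rare, with 37 reads for Glu-CTC A37T, 28 for Glu-CTC A37C and 15 for Gly-GCC A36G, and none was called.

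Position 6, chosen after its values had been seen, held the most mismatch reads of any site. This base of the acceptor stem is known to carry a methylated G in several tRNAs. In Gly-GCC a mismatch at G6 was found in 0.870%, 1.17% and 1.18% of control reads and in 2.42%, 2.24% and 1.96% of experimental reads, with every experimental library above every control. Along positions 3 to 29 of the same tRNA, the 26 other positions had control means of 0.0492% to 0.693% (median 0.336%) and experimental means of 0.0566% to 0.694% (median 0.344%). Among them, positions 13, 26, 28 and 29 also lay apart and higher, and positions 4, 10, 17 and 18 apart and lower. Position 29 had 0.268% and 0.510%. Further on, positions 30 (0.234% and 0.548%), 32 (0.642% and 1.19%) and 33 (0.279% and 0.580%) lay apart and higher. Positions 31 and 34 overlapped. At position 6 T was the base read most often. G6T took 0.472%, 0.763% and 0.742% of control reads and 1.83%, 1.59% and 1.42% of experimental reads (limma log2 odds difference 1.33 ± 0.350 SE, adjusted p = 0.164). G6A took 0.352% ± 0.0188 and 0.535% ± 0.0487 (limma log2 odds difference 0.60 ± 0.261 SE, adjusted p = 0.347). Neither passed the threshold over all sites.

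**Figure D3:**
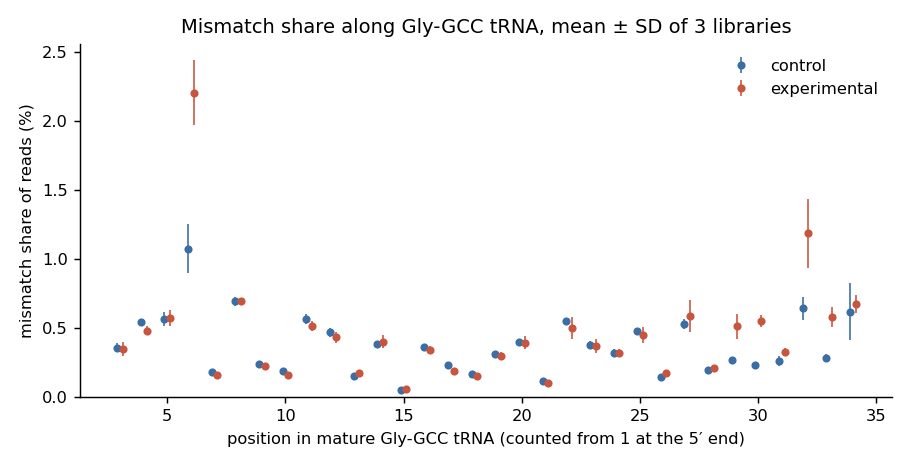
Share of reads with any inner mismatch (vertical axis, percent) at each position of the Gly-GCC tRNA (horizontal axis, counted from the 5′ end). Points are means of 3 libraries and bars are SD; position 6 stands above the rest, at 1.08% in the controls and 2.21% in the experimental libraries.

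The difference at position 6 of Gly-GCC was present at each fragment length. Among fragments that start at the first base and are 30 to 35 nt long, the G6T share had control means of 0.453% to 0.871% and experimental means of 1.45% to 2.07%. At all 6 lengths the experimental libraries lay above the controls, and the same held for G6A. The leading 31-nt fragment printed above had 672, 2044 and 546 reads with T in the controls beside 131062, 245657 and 68772 exact reads. In the experimental libraries it had 1166, 4241 and 6129 beside 57659, 213037 and 369194.

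Of 7 anticodons with G at position 6 and at least 100 reads a group, 6 were higher in all experimental libraries than in all controls (85.7%) and 0 were lower. These values take any mismatch, and some of the anticodons share reads. No share of the same kind over other positions is given here, and the position was chosen after its values had been seen. Of the 18 single-substitution sites with G at position 6 that were tested, 11 lay apart and higher and 1 apart and lower, where 17.2% and 5.19% of all tested sites did. limma called 0 of the 18, and 5 had an unadjusted p under 0.05. Gly-CCC, which shares many fragments with Gly-GCC, had 1.14% ± 0.158 and 2.38% ± 0.223. Lys-CTT, a lysine tRNA, had 1.65%, 1.22% and 1.70% in the controls and 2.40%, 2.33% and 1.77% in the experimental libraries. Its highest control and lowest experimental values were close. Glu-CTC had 0.687% ± 0.0670 and 0.879% ± 0.110, His-GTG 0.402% ± 0.130 and 0.751% ± 0.140, and Lys-TTT 0.946% ± 0.819 and 2.28% ± 0.438. The seventh, Asp-GTC, had 1.29% ± 1.63 and 2.29% ± 1.27, with overlap. The base read differed between tRNAs. In Gly-GCC 44800 reads had T and 16371 had A, whereas in Lys-CTT 4509 had A and 343 had T, and in Glu-CTC 1148 had A and 444 had T. In Lys-CTT the A form depended on fragment length. It lay apart and higher at 2 of 6 lengths. At 30 nt it lay apart and lower, with 1.69%, 2.27% and 4.55% in the controls and 1.56%, 1.36% and 0.321% in the experimental libraries. At 34 nt, the length with the most reads, the means were 1.89% ± 0.805 and 1.78% ± 0.329, with overlap.

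The kinds of substitution among all member reads also differed. T to C took 31.2%, 29.8% and 30.6% of control member reads and 20.5%, 24.0% and 25.2% of experimental ones. A to G took 19.9% ± 0.506 and 15.9% ± 1.86, also lower in every experimental library. G to T took 7.42%, 11.0% and 9.97% in the controls and 17.9%, 13.5% and 14.3% in the experimental libraries. C to A (3.65% ± 0.198 against 5.17% ± 0.810), C to T, G to C, A to T and T to G were likewise higher in all experimental libraries. G to A, T to A, A to C and C to G overlapped. For the 8 kinds that did not overlap the exact permutation test gave p = 0.1 and an adjusted p of 0.15 over 12 kinds, so none passed the threshold. Shares of one whole cannot move independently: the G6T form alone counts in the G to T class. Counted as distinct sequences, G to T took 7.41% ± 0.163 and 7.73% ± 0.550 of members, with overlap.

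**Figure D4:**
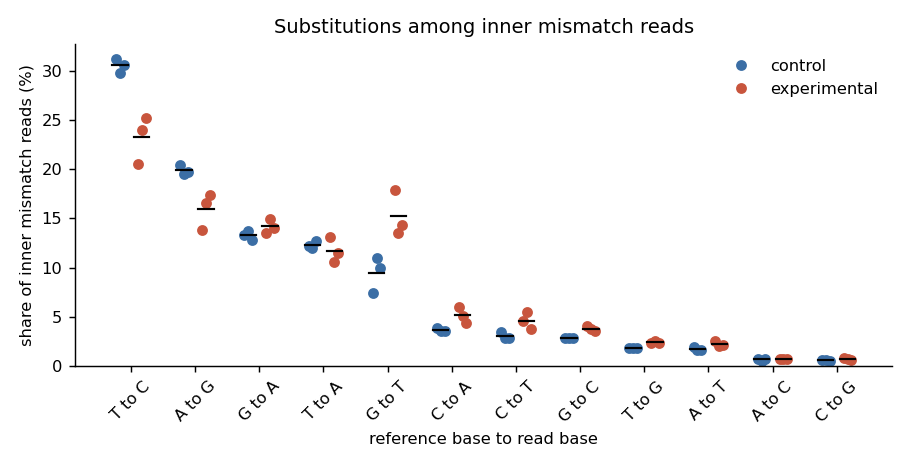
Share of member reads (vertical axis, percent) for each reference base and base read. Each point is 1 library and each bar a group mean; T to C is lower (20.5% to 25.2% against 29.8% to 31.2%) and G to T higher (13.5% to 17.9% against 7.42% to 11.0%) in the experimental libraries.

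Single sites were compared with limma on log2 odds, the log2 of mismatch over exact reads after adding 0.5 to each, with Benjamini-Hochberg adjustment over all sites. Of sites that shared at least 50% of their mismatch reads, only the one with the most exact reads was kept. After this step 617 sites had enough reads (at least 30 a group, 10 in every library and 10 mismatch reads in all), and they held 97.8% of member reads. Their median mismatch share was 0.153%, 95.8% lay under 1% and 9 exceeded 5%. The median difference over all of them was −0.09. limma called 4 sites higher in the experimental libraries (0.648%) and 2 lower (0.324%), in all 0.972% of sites. Before adjustment 95 sites (15.4%) had a p under 0.05. Without regard to the fit, the groups lay apart in 106 sites with the experimental group higher (17.2%) and in 32 with it lower (5.19%). Leaving out control replicate 3 left 2 calls, and leaving out any 1 of the other 5 left 0.

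The largest rise was at position 58 of Gly-CCC, the A56T site. Its log2 odds difference was 3.53 ± 0.446 SE (limma adjusted p = 0.0313). Gly-GCC A56T shared mismatch reads with this site and was not kept in the fit. Reads found on Gly-GCC but not on Gly-CCC are therefore not in these values. With any 1 library left out the difference was 3.18 to 3.81, with limma adjusted p of 0.0561 to 0.174. When the mismatch had to lie at least 4 bases from the read ends, which removes the 22-nt fragment with its mismatch at the fourth base, the difference was 2.04 and the call was lost (limma adjusted p = 0.162). Asp-GTC A57T, also position 58, stood at 2.39 ± 0.402 SE and did not pass (limma adjusted p = 0.0741). Of the 7 tested sites at position 58, 1 was called higher and 0 lower, and the sites read as G, such as Asp-GTC A57G (38 reads, log2 odds difference 0.05, limma adjusted p = 0.948) and Arg-TCT A58G (17 reads, −0.63, limma adjusted p = 0.786), were not called.

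The other calls described here lay in the anticodon arm, where most 5′ fragments end. Gly-GCC G29C took 0.0337%, 0.0288% and 0.0319% of control reads and 0.157%, 0.20% and 0.175% of experimental reads (limma log2 odds difference 2.48 ± 0.207 SE, adjusted p = 0.0118). Gly-GCC C30A took 0.116%, 0.111% and 0.109% and then 0.335%, 0.402% and 0.357% (limma log2 odds difference 1.69 ± 0.227 SE, adjusted p = 0.0349). Neither site overlapped between groups. The leading fragments of the 2 sites ended 2 bases after the mismatch.
G29C read: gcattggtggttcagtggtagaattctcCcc
G29C reference: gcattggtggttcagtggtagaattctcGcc
C30A read: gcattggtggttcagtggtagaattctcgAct
C30A reference: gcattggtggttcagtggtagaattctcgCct
Of the reads behind them, 64.8% and 81.5% had the mismatch within 4 bases of the 3′ end. Taken by fragment length up to 35 nt, G29C lay apart and higher at 4 of 5 lengths and C30A at 1 of 4, the 32-nt fragment, with 0.113% ± 0.00773 in the controls and 0.463% ± 0.0152 in the experimental libraries.

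The falls rested on few reads. Asp-GTC C29G was a single sequence of 14 nt, the shortest length in the table, with 1, 7 and 2 reads in the controls and 0, 3 and 0 in the experimental libraries, at 4.15% ± 1.70 and 0.161% ± 0.279 (limma log2 odds difference −3.99 ± 0.497 SE, adjusted p = 0.0313). The exact form of this stretch had 1 read in all libraries, of the 1232 exact reads over the position. These shares are therefore set almost wholly against other Asp-GTC fragments.
C29G read: ccGgcctgtcacgc
C29G reference: ccCgcctgtcacgc
Lys-CTT C32G had 1, 2 and 0 reads in the controls and 7, 28 and 6 in the experimental libraries. Its shares of 0.0416% ± 0.0361 and 0.0286% ± 0.00542 overlapped, and in control replicate 3 its log odds came from the added count alone (limma log2 odds difference −1.51 ± 0.222 SE, adjusted p = 0.0491).

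**Figure D5:**
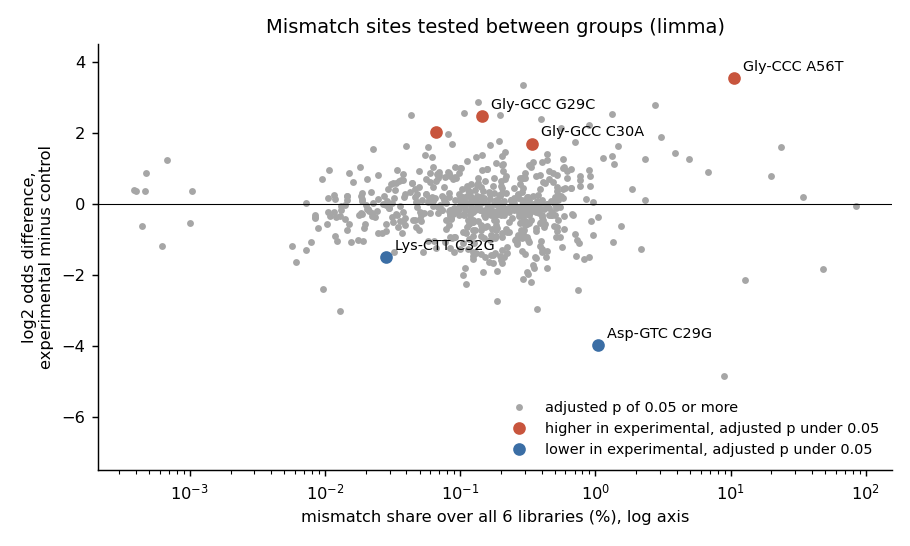
Log2 odds difference between experimental and control libraries (vertical axis) against the mismatch share over all 6 libraries (horizontal log axis, percent) for the 617 tested sites. Grey points did not pass limma's adjusted threshold of 0.05, and the 4 higher and 2 lower sites are coloured, 5 of them with their names; Gly-CCC A56T has the largest rise, 3.53.

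At positions 20, 32 and 47, which can carry dihydrouridine and other modified pyrimidines, no named site was called higher. Lys-CTT C32G, the call described above that rested on few reads, lies at position 32 and was called lower. Gly-GCC T19C (7678 reads), T19A (1987) and T19G (637) differed by −0.13, 0.17 and 0.13 on the log2 odds scale. Gly-GCC C31A, C31T and C31G stood at 0.47, 0.33 and −0.26. Gly-CCC C31T had 0%, 0.264% and 0% in the controls and 1.21%, 4.24% and 1.81% in the experimental libraries, with 99.6% of its reads within 4 bases of the 3′ end, and did not pass (limma log2 odds difference 2.78 ± 0.570 SE, adjusted p = 0.118). Arg-CCT T47C had 13 reads and stood at −0.30. Met-CAT T47A, Met-CAT T47C and Ala-TGC C46A had 9, 6 and 5 reads in all and were too rare to test.

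Outside these positions, Val-TAC A69G was high in every library of both groups. It took 32.7%, 33.7% and 32.2% in the controls and 35%, 36.6% and 35.96% in the experimental libraries, at 858 reads; the groups lay apart by a small margin (limma log2 odds difference 0.19 ± 0.335 SE, adjusted p = 0.825).
Val-TAC-1-1 read: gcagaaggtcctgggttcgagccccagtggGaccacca
Val-TAC-1-1 reference: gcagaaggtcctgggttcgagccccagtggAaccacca
Other sites with high shares outside the 8 positions scattered between libraries: Ile-AAT G69T reached 17.4% in experimental replicate 2 and at most 1.57% elsewhere, Arg-TCT G59C reached 10.6% in experimental replicate 3 and at most 1.61% elsewhere, and Thr-AGT A60C reached 12.99% in experimental replicate 2 and at most 4.26% elsewhere. Ser-TGA C12T reached 6.77% in experimental replicate 1 and at most 1.92% elsewhere. By read number the leading sites after position 6 were Gly-GCC A22G (16117 reads), T27C (14348) and T8A (13609), with log2 odds differences of −0.23, −0.01 and 0.11, none past the threshold in limma.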

How the data were processed

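Per the file headers, the authors deposited 1 raw read count for each distinct sequence and library, with its alignments to tRNAs, each with no more than 1 mismatch. The sources used here give no aligner, and the notes on processing name mm9, whose chromosomes are not those of the table. The deposited counts equalled the numbers in the read names of each library's own file. Interleaved header lines kept the columns from being typed as counts.

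Each member was counted once per site. A site is an anticodon, position and substitution. tRNAs of one anticodon that differ in length or anticodon start were kept apart. Of sites sharing at least 50% of mismatch reads, only the one with the most exact reads was kept, with its own counts. Both steps were set after a first fit had been seen. Members and lists were chosen with earlier results of these data known.

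limma 3.58.1 in R 4.3.3 (lmFit, eBayes with trend) compared log2 odds over all 6 libraries with no covariate and was tested on simulated data. Exact permutation tests of shares were two-sided, in scipy 1.17.1. Wilson intervals (95%) and upper limits for a count of 0 (3 counts over a group) take in counting error alone; PCR copies are counted as reads. Named sites were, at positions 9, 20, 26, 32, 34 (A), 37, 47 and 58, up to 4 with the most mismatch reads; elsewhere 5 with the highest share and 5 with the most reads; and the 5 largest called rises and falls; 2 sites so named, 1 of them called higher, are not reported here. Alternatives changed coverage, the added count, the model, the distance from read ends and the libraries.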

Additional observations from a re-analysis of the deposited data

How the results depend on the processing

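The 4 sites called higher and 2 called lower moved with most settings. Other counts, higher then lower, were 6 and 14 with 1 added to each count, 4 and 0 with 50 reads in every library, 1 and 0 in a quasi-binomial model, and 7 and 2 against every exact read. With the 2 settings added after seeing the data they were 2 and 0 for mismatches at least 4 bases from the ends, and 11 and 1 with precision weights. Leaving out 1 library gave 0 to 2 higher and 0 lower. A minimum of 30 reads a group alone gave 4 and 2; members that match a tRNA exactly did not occur. With a replicate block 0 were called higher and 0 lower, but same-numbered libraries did not deviate together (correlations 0.0146, 0.0465 and 0.00914), and replicates 1 and 3 correlated best with another number. The cause of these shifts was not tested. Depth limits position 34 and most tRNAs at position 58.

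The overall share, as distinct sequences, differed by −0.851 percentage points. As means of site shares, position 26 differed by 0.207, position 37 by −0.100 and the remaining positions by −0.0523. As distinct sequences C to T differed by −0.367 and T to A by 0.00303. Without 1 library, position 9 ranged from −0.00337 to 0.0196, position 26 from −0.0407 to 0.0133, and A to C from −0.0237 to 0.0909. The settings run for positions 34 and 58 and for position 6 of Gly-GCC kept the direction.

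Single-site log2 odds differences changed sign only among sites not called. The quasi-binomial model gave 0.174 for Lys-CTT A26G, 0.225 for Arg-CCT T47C and 0.150 for Gly-GCC T27C, and precision weights gave 0.139 for the first and 0.161 for the last. Adding 1 gave −0.105 for Asp-GTC A57G and −0.299 for Ser-TGA C12T. The distance of 4 gave −0.238 for Asp-GTC A57G and −0.204 for Gly-GCC C31A, and every exact read gave 1.30 for Gly-GCC C31G. Without 1 library, Lys-CTT A9G ranged from −0.694 to 0.203, Lys-CTT A26G from −0.12 to 0.155, Gly-GCC A36G from −1.68 to 0.191, Asp-GTC A57G from −0.0818 to 0.133, Ile-AAT G69T from −0.663 to 2.25, Ser-TGA C12T from −0.711 to 0.739, and Gly-GCC T27C from −0.129 to 0.202.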
